A study of Drosophila melanogaster with 12 samples.

Results

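The comparison described here asked whether whole adult female flies that lack the neuropeptide PTTH aged differently, in their transcripts, from wild-type flies of the same age. It used all 12 female libraries of the series, in 4 groups of 3. Old Ptth mutants (genotype labelled ptth120BC2, aged 5 weeks) and young Ptth mutants (1 week) were set against old wOB flies (5 weeks) and young wOB flies (1 week), where wOB is the label of the wild-type background. Each library was made from the poly(A) RNA of about 15 whole flies, untreated. The study describes a Ptth null allele, a small deletion in the last exon backcrossed to a matched background, but it names that allele and its wild type otherwise than the labels do and gives other ages in days. Whether ptth120BC2 is that allele is not stated by the labels, and the names and ages used here are those of the deposit. The quantity followed is the genotype by age term, (old minus young in mutants) minus (old minus young in wOB), on the log2(normalised count + 1) scale. It is positive where the age change of a transcript lies above that of wOB in the mutants and negative where it lies below, and it was computed for 11403 genes of 17714 in the table. The libraries are whole bodies, so fewer cells of a type and less RNA per cell cannot be told apart, and the p-values measure only the spread between these libraries, which the labels call biological replicates.

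PTTH is made by a few brain neurons. In the larva it binds the receptor tyrosine kinase Torso on the prothoracic gland and times the pulses of ecdysone that end larval growth. In flies, as in other animals, ageing is accompanied by rising activity of innate immune pathways. The Imd pathway ends in the NF-κB factor Relish and the Toll pathway in Dif and Dorsal, and both switch on secreted antimicrobial peptides in the fat body. The study asked whether the loss of PTTH alters that age-dependent activation, which is the question that a genotype by age term addresses.

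Depth ranged from 16448805 to 28206866 reads per library. Although all 12 libraries are labelled female, 3 of them held transcripts of the male accessory gland and testis, namely young mutant replicate 1 and young wOB replicates 1 and 2. The summed normalised count of 49 such genes was 22961 in that mutant library and 17674 and 59771 in the wOB libraries, against 157 to 263 in the other 9. The male dosage compensation RNA lncRNA:roX1 stood at 502, 812 and 1968 in these 3 libraries and at 31.5 to 179 elsewhere. The terms are therefore given with all 12 libraries and, except where an estimate is left out, again with the 9 that lack male transcripts. The repeat keeps all 6 old libraries but only 2 young mutant libraries and 1 young wOB library (replicate 3), for which no spread of its own can be estimated. A further feature followed the young wOB group as a whole. The mean log2 level of 28 early zygotic genes, which are normally switched on in the embryo after egg laying, was 6.73, 7.16 and 6.30 in the 3 young wOB libraries. It was 4.05 to 4.54 in the other 9. Of the 28, 11 passed the filter on low values (10 or more in at least 3 libraries) through young wOB alone. The gap in this mean therefore carries no weight as a result. Summed over all 35 members in the table, untested ones included, normalised counts were 12633, 13648 and 12704 in young wOB and 10456 to 12382 elsewhere. All young wOB libraries, the one without male transcripts included, stood higher in both.

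Ptth itself was detected in every library. Its normalised count was 58.6, 54.8 and 43.6 in old mutants and 28.3, 18.5 and 22.4 in young mutants, against 75.3, 76.3 and 76.8 in old wOB and 35.4, 39.9 and 25.5 in young wOB. In both genotypes the old libraries lay above the young ones without overlap. Ptth had an age change of 1.16 ± 0.22 in mutants and 1.18 ± 0.22 in wOB (SE, log2), and the genotype by age term was -0.02 ± 0.32 (limma adjusted p = 0.984, and -0.23 ± 0.26 with an adjusted p of 1 in 9 libraries). A small deletion need not change the level of the transcript, so it does not check the labels. The transcript of its receptor, tor, had a term of -0.29 ± 0.19 (adjusted p = 0.779 by limma), which was 0.02 ± 0.15 without the libraries with male transcripts. It averaged 2121 ± 146 in old mutants, 2300.2 ± 93.5 in young mutants, 1786 ± 184 in old wOB and 1602 ± 364 in young wOB (SD, n = 3 each).

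Across all tested genes 18 passed the test of the genotype by age term, limma's moderated test with an adjusted p under 0.05, which is 0.158% of those tested. The term was positive in 16 of them (0.140% of tested genes) and negative in 2 (0.0175%). Without adjustment 774 genes had a p under 0.05. The median term over all genes was -0.01, its median SE was 0.18, and 47.7% of genes were above 0. With 9 libraries 6 genes passed (0.0526%), all 6 with a positive term, and 554 had an unadjusted p under 0.05. A single gene, CG32557, passed in both, which is 5.56% of the 18 and 16.7% of the 6. The term of the 18 without the libraries with male transcripts was 0.80 to 1.06 times that in 12 libraries, which is a description only, since the 9 libraries are among the 12 that gave the calls. DESeq2 on the whole reads recovered from the table called 123 genes in 12 libraries (1.10% of 11177) and 48 in 9 libraries (0.424% of 11309). These include all 18 in 12 libraries and 16 of the 18 in 9, but only 1 of the 6 that limma called in 9. edgeR called 6 genes in 12 libraries. When each of the 12 libraries was left out in turn, 4 to 15 genes passed, except without young wOB replicate 3, when 201 did. Act88F was called in 11 of these 12 repeats, and CG32557, CG4950, CG6337 and CG7916 were called in all 12. The other 13 were called in 1 to 8 of them, NtR in 8, CG10035 in 7, link and CG8299 in 4, hll, CG7567, Cpr47Ef and CG12057 in 3, CG8997, l(2)gl and CG3604 in 2, and dan and CG34220 in 1. Among the 9 libraries, the count of 6 became 0 without old wOB replicate 1, 1 without old wOB replicate 2 and 1 without old wOB replicate 3, and CG32557 was called in 0 of the 8 repeats that left out 1 more library.

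**Figure D1:**
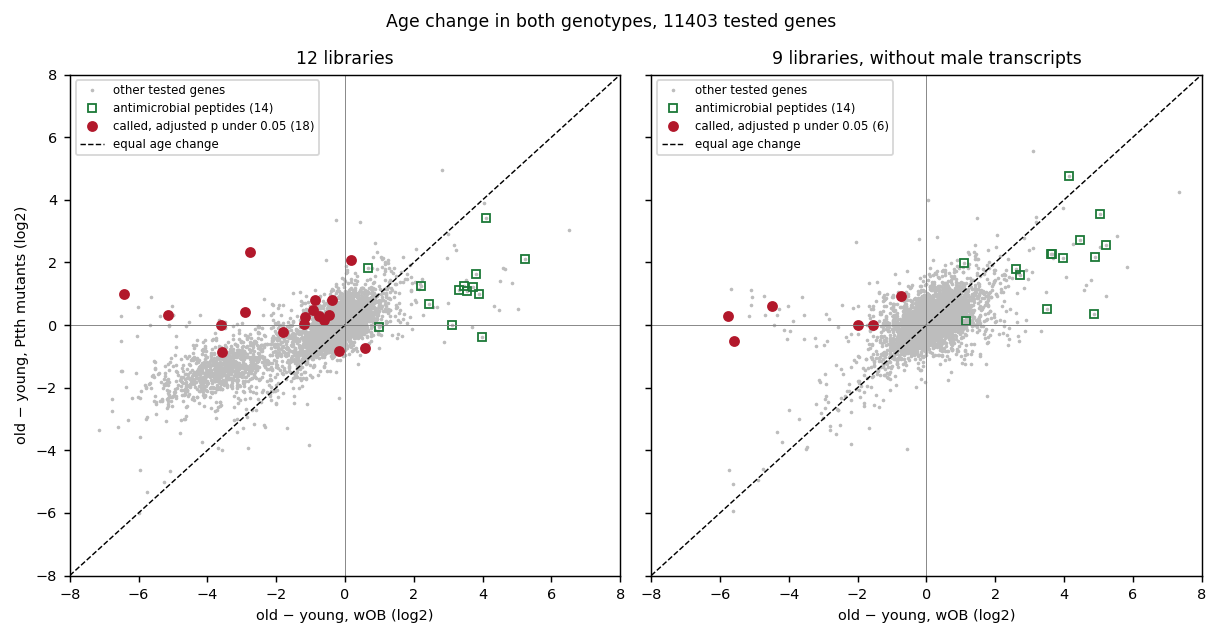
Age change (old minus young, log2) in Ptth mutants on the vertical axis against that in wOB on the horizontal axis for 11403 tested genes, with 12 libraries (left) and with the 9 without male transcripts (right); each point is 1 gene, red points passed the test of the genotype by age term, green squares are the 14 antimicrobial peptide genes and the dashed line marks equal change. With 12 libraries a cloud of genes lies at strongly negative wOB values, and it is absent with 9; most green squares lie below the dashed line in both.

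The age changes of the 2 genotypes were compared gene by gene in the same plot. Across genes their Pearson r was 0.79 in 12 libraries and 0.59 in 9, given as a description since genes share the libraries. The SD over genes of the age change was 0.59 in mutants and 1.15 in wOB with 12 libraries, and 0.47 in mutants and 0.59 in wOB with 9. Terms beyond 1 in either direction were found in 1272 genes (11.2%) with 12 libraries and in 527 (4.62%) with 9. Of the 18 called genes, 13 had an age change above 0 in mutants and under 0 in wOB. Of the 6 called with 9 libraries, 3 did so.

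The called genes were sorted by the group whose mean stood farthest from the other 3. Old wOB was the group that stood apart, and stood lower, in 10 of the 18, and in 8 of these its 3 libraries lay below all 9 others. Over all tested genes 1.53% had all old wOB libraries below the 9 others. Young wOB stood apart and higher in 4 (Act88F, CG10035, dan and link), with no overlap in any of the 4. Young wOB libraries lay above all others in 2.75% of tested genes. CG10035 and link passed the filter on low values (10 or more in at least 3 libraries) through young wOB alone. dan reached 10 in 5 libraries, 3 of them young wOB, and would not have passed without that group. The called genes were also selected on these same values, so their group orders are a description and carry no weight as a result. In the remaining genes a mutant group stood apart. Old mutants were higher for NtR and lower for l(2)gl and CG3604, and young mutants were lower for CG7567. CG7916, CG8997, CG4950 and dan lay outside the rule for named genes and are given because the called genes are few.

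**Figure D2:**
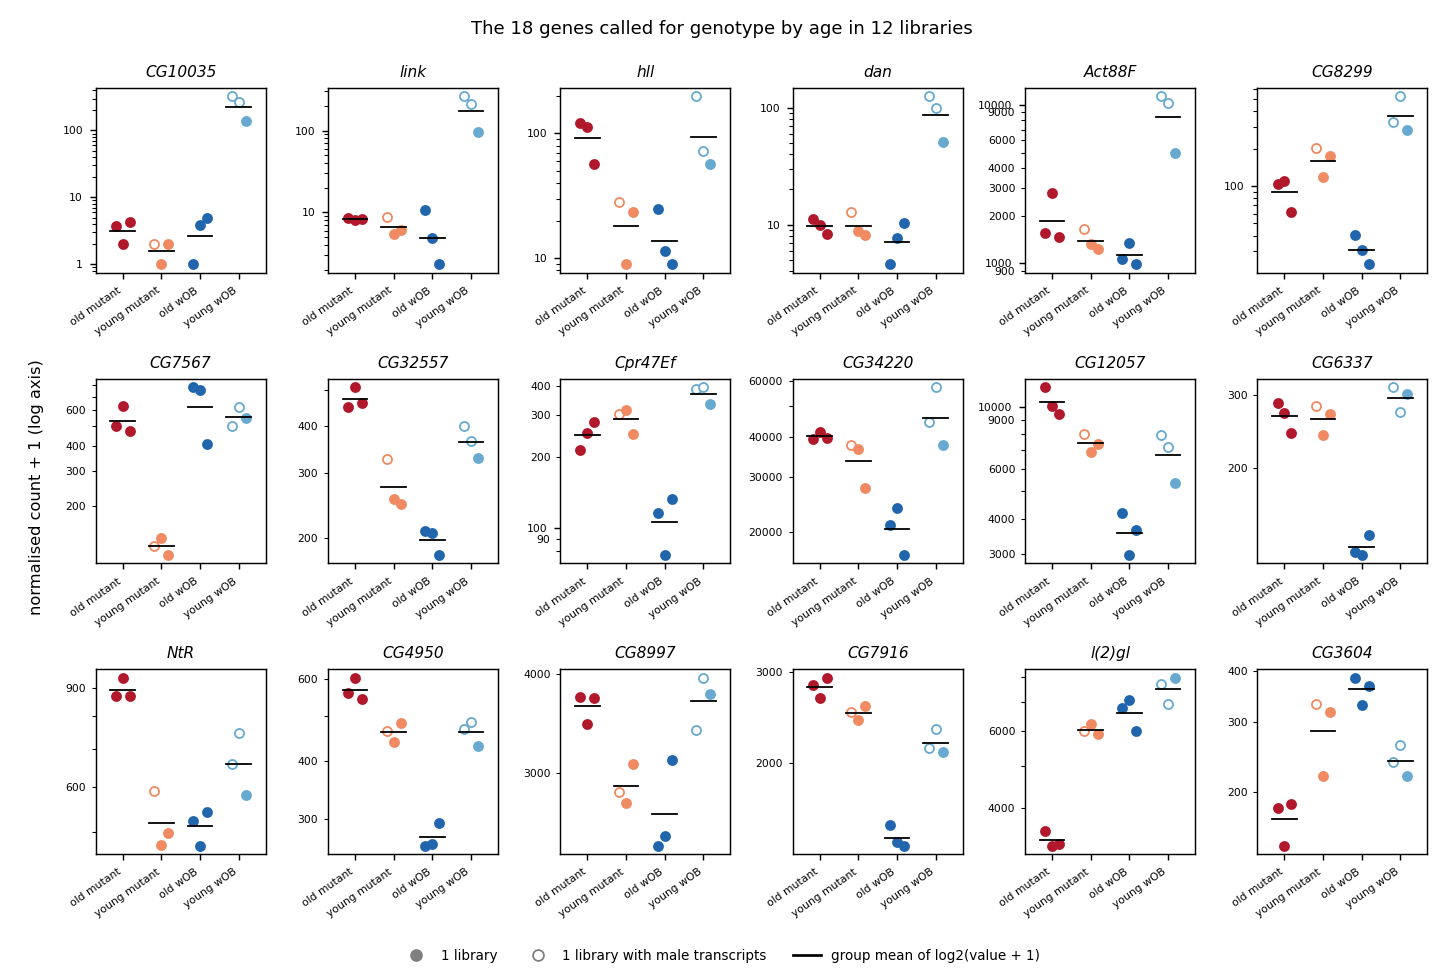
Normalised count + 1 (log axis, a separate range in each panel) of the 18 genes called in 12 libraries, in old mutants, young mutants, old wOB and young wOB from left to right; each circle is 1 library, open circles are the 3 libraries with male transcripts and bars are group means of the log2 values. Old wOB libraries sit lowest in most panels, and young wOB libraries sit highest in the panels of CG10035, link, dan and Act88F.

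CG32557 had the lowest adjusted p together with CG4950 and was the gene called with and without the libraries with male transcripts. It is annotated as Mco4, a multicopper oxidase, on the X chromosome (X:17852958-17856129, minus strand, Release 6). Its normalised count was 451, 510.2 and 463 in old mutants and 326, 253 and 246 in young mutants, against 208, 205 and 179 in old wOB and 399, 364 and 328 in young wOB. Old libraries lay above young ones in the mutants and below them in wOB, with no overlap between ages in either genotype or between genotypes at either age. The age change was 0.79 ± 0.12 in mutants and -0.88 ± 0.12 in wOB, a term of 1.67 ± 0.17 (limma adjusted p = 0.006). With 9 libraries the term was 1.66 ± 0.15 (adjusted p = 0.0357, limma). The mutant minus wOB difference was 1.26 ± 0.12 at 5 weeks and -0.41 ± 0.12 at 1 week.

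CG4950 (3L:16265797-16268156) showed a like arrangement of groups. Its counts were 558, 603 and 543 in old mutants and 463, 437 and 481 in young mutants, against 262, 264 and 293 in old wOB and 466, 483 and 430.3 in young wOB. Old wOB lay below every other library, old mutants above every other, and the young libraries of both genotypes overlapped. Its term was 1.05 ± 0.11 (limma adjusted p = 0.006), and 0.96 ± 0.14 (adjusted p = 0.115) with 9 libraries. CG7916 and CG8997 are neighbours on chromosome arm 2L (13846752 to 13847799 and 13843915 to 13845325) and are transcribed away from each other. CG7916 had 2829.9, 2670.4 and 2919 in old mutants and 2509, 2418 and 2567 in young mutants, against 1515, 1402 and 1381 in old wOB and 2133, 2317 and 2095 in young wOB. All mutant libraries lay above all wOB libraries, and the gap was 0.97 ± 0.06 at 5 weeks and 0.20 ± 0.06 at 1 week. The term was 0.77 ± 0.09 for CG7916 (limma adjusted p = 0.00773, with 0.72 and 0.108 in 9 libraries) and 0.81 ± 0.13 for CG8997 (0.0461, with 0.83 and 0.401 in 9 libraries). For CG8997 old mutants averaged 3642 ± 156 and young mutants 2889 ± 167, against 2679.9 ± 375 in old wOB and 3709 ± 286 in young wOB (SD, n = 3 each), and its old wOB and young mutant libraries overlapped.

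CG6337, CG34220 and CG12057 repeated this order with old wOB lowest. CG6337 counted 286, 270.0 and 241 in old mutants and 280.4, 238 and 268 in young mutants, against 124, 122 and 136 in old wOB and 312, 272 and 299.6 in young wOB. The old wOB libraries alone were low and the other 3 groups overlapped, with a term of 1.22 ± 0.15 (limma adjusted p = 0.00773, with 1.29 and 0.108 in 9 libraries). CG34220 averaged 40250.2 ± 1076 in old mutants and 34017 ± 5488 in young mutants, against 20656 ± 3448 in old wOB and 46599.9 ± 10045 in young wOB, a term of 1.42 ± 0.23 (adjusted p = 0.0461 by limma, with 1.22 and 0.407 in 9 libraries). CG12057 (X:9191657-9192548) averaged 10439 ± 1223 in old mutants and 7449 ± 559.7 in young mutants, against 3595 ± 608 in old wOB and 6829 ± 1351 in young wOB. Its term was 1.40 ± 0.22 (limma adjusted p = 0.0448, with 1.12 and 0.401 in 9 libraries). The annotation used here gives no function for these 3 genes.

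The other called genes with low levels in old wOB have known products. CG8299 encodes a trypsin-like serine protease, and its counts were 102, 109 and 60.6 in old mutants and 202, 116 and 172 in young mutants, against 39.4, 29.6 and 22.5 in old wOB and 325, 525 and 281 in young wOB. None of the 4 groups overlapped, and young wOB was the highest and old wOB the lowest. CG8299 had an age change of -0.85 ± 0.31 in mutants and of -3.57 ± 0.31 in wOB, a term of 2.71 ± 0.43 (limma adjusted p = 0.0448, with 2.52 and 0.401 in 9 libraries). Cpr47Ef encodes a cuticle protein with a chitin-binding domain. It averaged 248 ± 34.6 in old mutants and 289 ± 35.2 in young mutants, against 108 ± 28.7 in old wOB and 370.5 ± 32.8 in young wOB, with a term of 1.59 ± 0.26 (limma adjusted p = 0.0461, with 1.47 and 0.663 in 9 libraries). It was the only called member of 26 tested Cpr cuticle genes, whose median term was 0.02. hll belongs to the bubblegum-like acyl-CoA synthetases, which activate long fatty acids. Its counts were 120.0, 111 and 55.7 in old mutants and 27.4, 7.92 and 22.4 in young mutants, against 23.9, 10.5 and 7.94 in old wOB and 198, 71 and 56 in young wOB. Old mutants and young wOB were high and the other groups low, a term of 5.11 ± 0.81 (adjusted p = 0.0448 by limma, with 4.72 and 0.343 in 9 libraries).

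Act88F, the actin of the indirect flight muscles (3R:15439969-15442177), led the genes that stood high in young wOB. It counted 1564, 2783 and 1461 in old mutants and 1639.6, 1317 and 1223 in young mutants, against 1067, 1350.2 and 985 in old wOB and 11359, 10345 and 4959 in young wOB. The 3 young wOB libraries lay above all others, and the library without male transcripts was the lowest of them. The age change was 0.42 ± 0.30 in mutants and -2.89 ± 0.30 in wOB, a term of 3.32 ± 0.43 (limma adjusted p = 0.0147). With 9 libraries the term was 2.69 ± 0.46 (adjusted p = 0.181). Act88F was the only called gene of 32 muscle structural genes, of which 28 had a term above 0 with 12 libraries and 21 with 9. Their median term was 0.27 with 12 libraries and 0.06 with 9. TpnC4, the flight muscle troponin C, was chosen after its values were seen and averaged 75.1 ± 26.6 in old mutants and 1814 ± 182 in young mutants, against 24.1 ± 5.2 in old wOB and 1529.5 ± 184 in young wOB. Its age change was -4.64 ± 0.25 in mutants and -5.95 ± 0.25 in wOB, and its term of 1.30 ± 0.35 did not pass (limma adjusted p = 0.283, with 1.12 ± 0.56 and 1 in 9 libraries).

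CG10035, link and dan were low outside young wOB. CG10035, a member of the early zygotic list, counted 2.79, 0.996 and 3.23 in old mutants and 0.977, 0 and 1.02 in young mutants, against 0, 2.86 and 3.97 in old wOB and 323, 266 and 136 in young wOB. Only the young wOB libraries were high, which gave the largest term of the 18, 7.41 ± 1.00 (limma adjusted p = 0.0149, with 6.83 and 0.202 in 9 libraries). The counts of link were 7.44, 6.97 and 7.27 in old mutants and 7.82, 4.4 and 5.08 in young mutants, against 9.56, 3.82 and 1.32 in old wOB and 261, 211 and 94.3 in young wOB, with a term of 5.46 ± 0.77 (limma adjusted p = 0.0215, with 4.80 and 0.253 in 9 libraries). dan (distal antenna) encodes a nuclear factor of antennal and neural development. Its counts were 10.2, 8.97 and 7.27 in old mutants and 11.7, 7.92 and 7.11 in young mutants, against 3.58, 6.68 and 9.27 in old wOB and 124, 98.9 and 50.1 in young wOB. Its term was 3.60 ± 0.61 (limma adjusted p = 0.0497, with 3.04 and 0.204 in 9 libraries). CG10035 and link passed the filter on low values (10 or more in at least 3 libraries) through the young wOB libraries alone, so a difference of that group was required for them to be tested. dan reached 10 in the 3 young wOB libraries, old mutant replicate 1 and young mutant replicate 1, so it too needed young wOB to be tested. Of the early zygotic list 28 members were tested, 11 of which passed the filter through young wOB alone, and 25 had a term above 0. The median term of the list was 1.59 (0.93 in 9 libraries), CG10035 alone was called in 12 libraries and Bsg25A alone in 9, and young wOB libraries lay above all others in 17 of its 28 members, beside 2.75% of all tested genes. Because of the filter these counts are a description and carry no weight as a result. The part of this list in the young wOB values was not tested.

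NtR, a member of the neurotransmitter-gated channel family, was the called gene in which old mutants were the group farthest from the others and stood higher. It counted 869, 937 and 869 in old mutants and 589, 472 and 497 in young mutants, against 522, 471 and 540.2 in old wOB and 658, 748 and 579.6 in young wOB. The old mutant libraries lay above the other 9, and in wOB the old libraries lay below the young ones. The age change was 0.78 ± 0.11 in mutants and -0.37 ± 0.11 in wOB, a term of 1.15 ± 0.15 (limma adjusted p = 0.0149, with 1.06 and 0.0742 in 9 libraries). CG7567 (3R:29587237-29588104) differed in the young mutants instead. Its counts were 501, 629 and 473 in old mutants and 126, 139 and 114 in young mutants, against 784, 756 and 408 in old wOB and 502, 624 and 551 in young wOB. The 3 young mutant libraries were the lowest, and its term was 1.90 ± 0.30 (limma adjusted p = 0.0448, with 1.89 and 0.532 in 9 libraries).

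The term was negative in l(2)gl and CG3604. l(2)gl, a cell polarity gene known as a tumour suppressor of larval tissues, lies at the left end of chromosome arm 2L (2L:9839-21376). It counted 3557, 3286 and 3315 in old mutants and 6013, 6236 and 5904 in young mutants, against 6780.0, 7089.7 and 6011 in old wOB and 7688, 6925 and 7959.5 in young wOB. The old mutants lay below all other libraries, and old and young wOB overlapped. The age change was -0.84 ± 0.07 in mutants and -0.18 ± 0.07 in wOB, a term of -0.65 ± 0.11 (limma adjusted p = 0.0448, with -0.57 and 0.392 in 9 libraries). CG3604 (2L:3697242-3697872) counted 181, 146 and 186 in old mutants and 330.3, 218 and 315 in young mutants, against 385, 329 and 367 in old wOB and 237, 261 and 219 in young wOB. Old mutants were the lowest group, old wOB had the highest mean, and the age changes had opposite signs, -0.73 ± 0.16 in mutants and 0.59 ± 0.16 in wOB. Its term was -1.32 ± 0.22 (limma adjusted p = 0.0461, with -1.33 and 0.401 in 9 libraries).

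**Figure D3:**
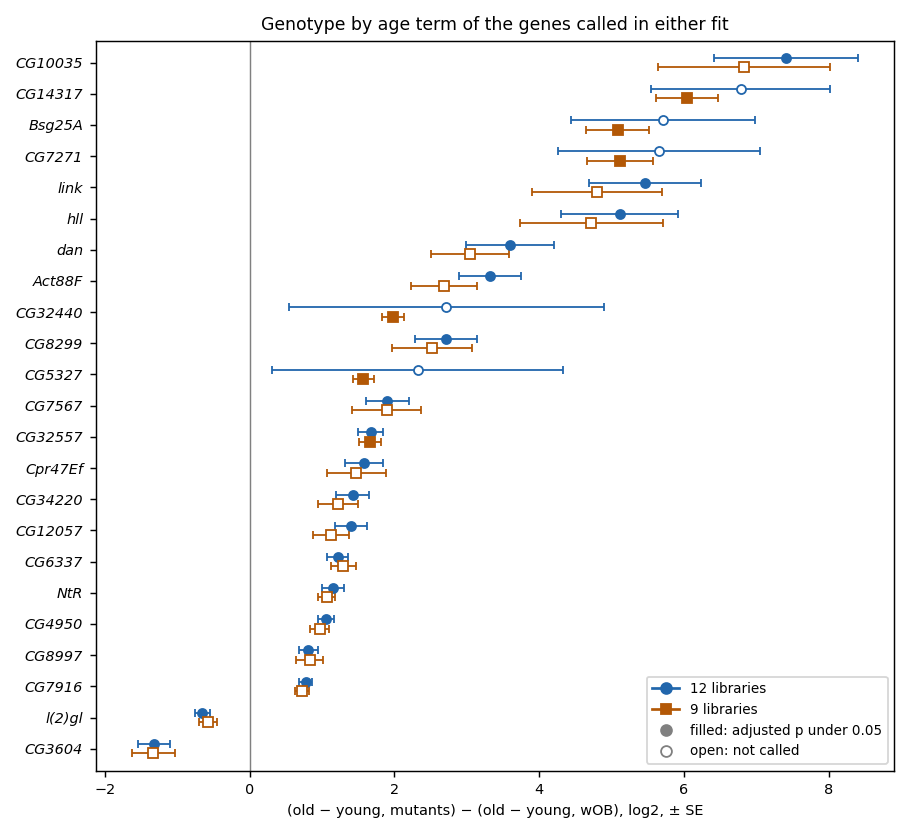
Genotype by age term (log2, with its SE as bars) of the 23 genes called with 12 libraries (blue circles) or with 9 (orange squares); filled symbols have an adjusted p under 0.05. Of the genes called with 12 libraries only CG32557 is filled in both, while the estimates of each gene with 12 and 9 libraries lie close together.

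Apart from CG32557, the genes called with 9 libraries rested on young wOB replicate 3 and on other libraries at or near 0, where the spread is estimated to be small. CG14317 (annotated as bard) was at 53.1 in that library and between 0 and 0.807 in the other 8, Bsg25A (Elba1, a subunit of a factor that binds chromatin insulators in the embryo) was at 47.2 and 0 to 1.02, and CG7271 was at 21.6 and 0 to 0.996. All 3 were also present in the young wOB libraries with male transcripts, at 64.7 and 208 for CG14317, 42.7 and 137 for Bsg25A and 18.3 and 80.6 for CG7271. Their terms in 9 libraries were 6.04 ± 0.43 for CG14317 (limma adjusted p = 0.0246), 5.08 ± 0.44 for Bsg25A (0.0357) and 5.12 ± 0.46 for CG7271 (0.0357). In 12 libraries the adjusted p was 0.0661 for CG14317, 0.158 for Bsg25A and 0.23 for CG7271. CG32440 and CG5327 stood at 2.95 and 1.96 in young wOB replicate 3 and at 0 in the other 8 libraries. In the 3 libraries with male transcripts they reached 39.1, 30.5 and 90.1 for CG32440 and 17.6, 17.1 and 42.3 for CG5327, in young mutant replicate 1 and young wOB replicates 1 and 2. Their terms of 1.98 ± 0.15 (limma adjusted p = 0.0246) and 1.57 ± 0.15 (0.0357) therefore rest on a few reads of 1 library. These 2 genes reached the filter's 10 counts in none of the 9 libraries, and CG14317, Bsg25A and CG7271 in 1, so that 5 of the 6 were tested only because of libraries with male transcripts and carry no weight as results. CG14317, CG7271, CG32440 and CG5327 lay outside the rule for named genes and were chosen after their values were seen.

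The antimicrobial peptides were the immune outputs that the study followed, and most genes of this list were picked by the study on these same libraries, so their direction is not independent evidence. None of the 14 tested genes was called for the genotype by age term, in 12 libraries or in 9, by limma, DESeq2 or edgeR. Unadjusted, 6 of the 14 had a limma p under 0.05 in 12 libraries and 4 in 9. The term was below 0 in 13 of 14 genes with 12 libraries and in 12 of 14 with 9. The median term was -2.21 with 12 libraries and -1.44 with 9, beside -0.01 and -0.02 over all tested genes. The median age change over the list was 1.16 in mutants and 3.51 in wOB with 12 libraries, and 2.15 in mutants and 3.82 in wOB with 9. In 13 of the 14, all but Def, the 3 old wOB libraries lay above the other 9 libraries, an order found in 3.69% of all tested genes.

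**Figure D4:**
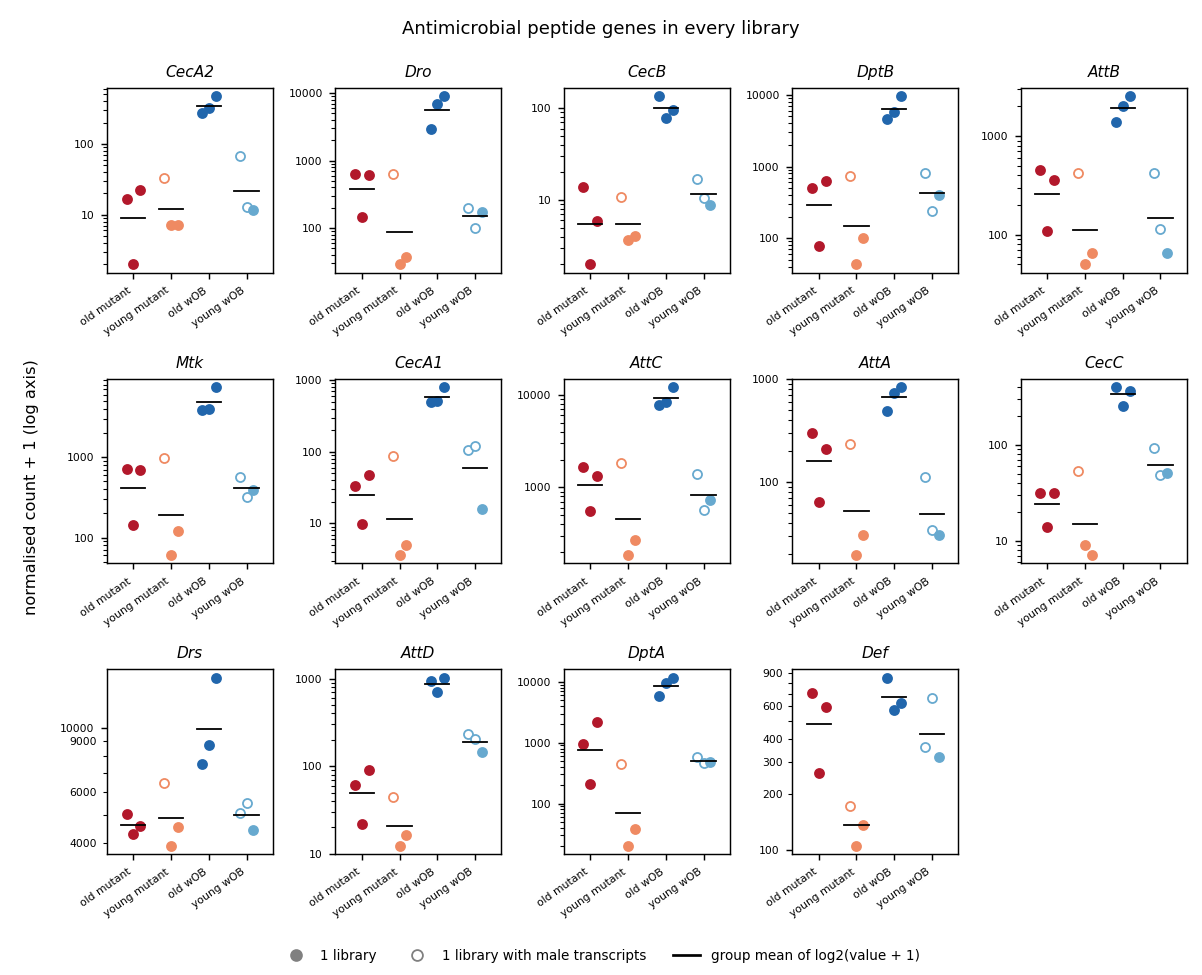
Normalised count + 1 (log axis, a separate range in each panel) of the 14 antimicrobial peptide genes in old mutants, young mutants, old wOB and young wOB from left to right; each circle is 1 library, open circles are libraries with male transcripts and bars are group means of the log2 values. Old wOB libraries lie above all others in every panel but that of Def, and young mutant replicate 1 (open) and old mutant replicate 2 (low) stand apart from their own replicates in many panels.

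Among the peptides of the Imd pathway, Dro (Drosocin) counted 628, 146 and 617 in old mutants and 640.0, 28.1 and 36.6 in young mutants, against 2942, 6923 and 8981 in old wOB and 199, 98.9 and 172 in young wOB. Old wOB was far above the rest, whereas the ages overlapped in the mutants because young mutant replicate 1, a library with male transcripts, was as high as the old mutants. Its age change was 2.12 ± 0.99 in mutants and 5.23 ± 0.99 in wOB, a term of -3.11 ± 1.40 (limma adjusted p = 0.734). Without the libraries with male transcripts the age change was 3.54 ± 0.74 in mutants and 5.04 ± 0.94 in wOB, and the term was -1.49 ± 1.19. AttC, an attacin active against Gram-negative bacteria, was at 1682, 553 and 1337 in old mutants and 1819, 186 and 269 in young mutants, against 7823, 8351 and 12127 in old wOB and 1406, 571 and 735 in young wOB. Its groups were ordered as those of Dro, and its term was -2.21 ± 1.00 (limma adjusted p = 0.734, with -1.40 ± 0.77 in 9 libraries).

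The diptericins differed from each other. DptB had a term of -2.92 ± 1.37 (limma adjusted p = 0.75, with -1.84 ± 1.49 in 9 libraries), with 503, 76.7 and 623 in old mutants and 738, 42.2 and 99.6 in young mutants, against 4557, 5770.0 and 9575 in old wOB and 813, 235 and 399 in young wOB. DptA had the term nearest to 0 of the list and the one whose sign depended on the libraries, -0.68 ± 1.42 in 12 and 0.60 ± 1.50 in 9. It counted 954, 207 and 2178 in old mutants and 450.5, 19.3 and 37.6 in young mutants, against 5779.9, 9538 and 11726 in old wOB and 581, 459 and 484 in young wOB. Both ages of wOB thus lay above the matching mutants, with mutant minus wOB differences of -3.51 ± 1.00 at 5 weeks and -2.84 ± 1.00 at 1 week. These 2 genes, like AttA and AttB and like CecA1 and CecA2, are similar copies, and how reads were divided between them is uncertain.

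The cecropins, which lyse bacterial membranes, lie together on chromosome arm 3R and included the lowest adjusted p of the list. CecA2 counted 15.8, 0.996 and 21 in old mutants and 32.2, 6.16 and 6.1 in young mutants, against 270.1, 323 and 470.0 in old wOB and 65.9, 12 and 10.8 in young wOB. Its old wOB libraries stood above all others, and its term was -4.39 ± 1.32 (limma adjusted p = 0.396, with -4.53 ± 1.57 and 0.942 in 9 libraries). CecB had a term of -3.09 ± 0.94 (-2.99 ± 1.20 in 9 libraries), CecA1 one of -2.21 ± 1.57 (-2.67 ± 1.04) and CecC one of -1.77 ± 0.90 (-1.11 ± 0.65). The attacins AttA, AttB and AttD had terms of -2.18 ± 1.20, -2.50 ± 1.19 and -0.96 ± 0.73 (-1.76 ± 1.04, -2.72 ± 0.97 and -0.81 ± 0.91 in 9 libraries). Mtk (Metchnikowin), which acts on fungi and bacteria, had a term of -2.46 ± 1.23 (-1.36 ± 1.23 in 9 libraries). None of these passed the test, with limma adjusted p values of 0.409 to 0.779.

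Drs (Drosomycin), the antifungal peptide used as a readout of Toll, counted 5043, 4287 and 4585 in old mutants and 6458, 3922 and 4549 in young mutants, against 7503, 8743 and 14919 in old wOB and 5095, 5525 and 4439.5 in young wOB. Its old wOB libraries alone were high, with an age change of -0.07 ± 0.23 in mutants and 0.99 ± 0.23 in wOB and a term of -1.06 ± 0.33 (limma adjusted p = 0.411, with -1.03 ± 0.44 in 9 libraries). Def (Defensin), active against Gram-positive bacteria, was the exception to the direction. It counted 704, 260.1 and 589 in old mutants and 173, 105 and 135 in young mutants, against 853, 572 and 622 in old wOB and 359, 663 and 318 in young wOB. The young mutants were the group that stood apart and low, the other groups overlapped, and its term was 1.15 ± 0.51 (limma adjusted p = 0.732, with 0.92 ± 0.68 in 9 libraries).

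The median term of the list moved with single libraries. It was -1.15 without young mutant replicate 1 and at the lowest -2.97 when any other of the 12 libraries was left out in turn. Among the 9 libraries it was -0.90 without old mutant replicate 2 and at the lowest -1.80. The mean log2 level of the 14 peptides was 7.93, 5.99 and 7.94 in the 3 old mutant libraries, and it was 7.95 in young mutant replicate 1.

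The Bomanins and Daishos are short secreted peptides induced by Toll. As with the antimicrobial peptides, several were picked by the study on these libraries. None of 14 tested genes was called in 12 libraries or in 9, and 5 and 3 had an unadjusted limma p under 0.05. The term was below 0 in 12 of 14 with 12 libraries and with 9, with a median of -0.81 in 12 libraries and -0.60 in 9. Old wOB libraries lay above all others in 8, beside 3.69% of all tested genes. CG43202 (BomT1) counted 45.6, 44.8 and 58.9 in old mutants and 77.2, 15 and 29.5 in young mutants, against 137, 201 and 189 in old wOB and 26.8, 36.7 and 23.6 in young wOB. Its old wOB libraries stood above the rest, with a term of -1.98 ± 0.63 (limma adjusted p = 0.441, with -1.64 ± 0.50 in 9 libraries). IM23 (BomBc1) counted 170.3, 79.7 and 327 in old mutants and 1608, 46.6 and 68.1 in young mutants, against 895, 1265 and 1601 in old wOB and 76.9, 145 and 71.7 in young wOB. Here young mutant replicate 1 exceeded even old wOB, and the term was -3.77 ± 1.46 with that library and -2.54 ± 0.92 without the libraries with male transcripts. IM1 (BomS1) had a term of -2.09 ± 0.82, IM14 (Dso2) of -1.16 ± 0.51 and IM4 (Dso1) of -0.84 ± 0.42. With 9 libraries these were -1.49 ± 0.53 for IM1, -1.01 ± 0.50 for IM14 and -0.78 ± 0.42 for IM4. CG18107 (BomS4) and CG5778 (BomT3) were the members above 0, at 0.38 ± 0.23 and 0.05 ± 0.31 (0.02 ± 0.29 and 0.04 ± 0.34 in 9 libraries). CG18067 (Bbd), which is in the list of larval serum and fat body proteins and not among these 14, had a term of -0.81 ± 0.52 (-0.71 ± 0.50 in 9 libraries). Without young mutant replicate 1 the median of the Bomanin and Daisho list was -0.31.

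Components upstream of these peptides had terms closer to 0. Of 32 Imd and Toll pathway genes none was called, 25 were below 0 with a median of -0.11 (24 and -0.09 in 9 libraries), and 7 had an unadjusted limma p under 0.05 (5 in 9 libraries). The members named by the rule were cact, the inhibitor of the NF-κB factors of Toll, with a term of -0.23 ± 0.14 (-0.06 ± 0.11 in 9 libraries), and akirin, a nuclear cofactor of Relish, with one of -0.05 ± 0.11 (-0.03 ± 0.12). The libraries of cact and akirin overlapped between ages in both genotypes and between genotypes at both ages. Of the genes that follow, those other than PGRP-SB1 were chosen after their values were seen. Rel, which encodes Relish, counted 2758, 2628 and 2736 in old mutants and 2499, 2426 and 2249 in young mutants, against 4109, 3874 and 4850.0 in old wOB and 3334, 3137 and 2722 in young wOB. No groups of the 2 genotypes overlapped at either age, and the term was -0.30 ± 0.13 (limma adjusted p = 0.718, with -0.43 ± 0.15 in 9 libraries). The recognition protein gene PGRP-SA, upstream of Toll, had a term of -0.62 ± 0.31 (-0.85 ± 0.42 in 9 libraries), and the amidase PGRP-SB1 one of -1.33 ± 0.56 (-1.15 ± 0.58). None of 5 amidase and secreted recognition genes was called, with a median of -0.03 (-0.27 in 9 libraries). Spn88Eb, a serpin, counted 529.5, 462 and 475 in old mutants and 512, 400.2 and 484 in young mutants, against 2175, 2333 and 3616 in old wOB and 720.0, 1028 and 593 in young wOB. Both mutant groups were alike and old wOB was high, yet the term of -1.72 ± 0.30 missed the threshold (limma adjusted p = 0.0533, and 0.202 in 9 libraries). CG1667, the fly Sting gene of antiviral defence, had a term of -0.50 ± 0.10 (adjusted p = 0.0957 by limma, with -0.50 ± 0.10 and 0.275 in 9 libraries), with 898, 941 and 958 in old mutants and 939, 949 and 1057 in young mutants, against 1525, 1621 and 1561 in old wOB and 1093, 1224 and 1193 in young wOB. The old wOB libraries lay above all others in Rel, PGRP-SA, PGRP-SB1, Spn88Eb and CG1667, and in 9 of the 32 pathway genes, beside 3.69% of all tested genes.

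The list of JAK-STAT pathway genes and Turandot peptides had no called member among 13, with a median term of -0.03 in 12 libraries and 0.05 in 9. The cytokine gene upd3, named after its values were seen, counted 28.8, 26.9 and 25 in old mutants and 9.77, 13.2 and 6.1 in young mutants, against 99.2, 76.3 and 82.1 in old wOB and 52.5, 67 and 46.2 in young wOB. The 4 groups did not overlap, and the mutant minus wOB difference was -1.63 ± 0.27 at 5 weeks and -2.43 ± 0.27 at 1 week. Its age change was 1.44 ± 0.27 in mutants and 0.64 ± 0.27 in wOB, a term of 0.80 ± 0.38 that did not pass (limma adjusted p = 0.75, with 0.60 ± 0.47 and 1 in 9 libraries). Socs36E, a target and inhibitor of the JAK-STAT pathway, was also named after its values were seen. It had a term of -0.17 ± 0.22 (adjusted p = 0.796 by limma, with a term of -0.32 ± 0.29 in 9 libraries).

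Among 17 haemocyte and melanisation genes none was called, 11 had a term above 0 and 6 below, and the median was 0.43 (12, 5 and 0.23 in 9 libraries). Terms ranged from -1.34 to 1.70. The members named by the rule were Col4a1 and vkg, the chains of collagen IV in basement membranes, with terms of 0.53 ± 0.20 and 0.52 ± 0.21 (0.40 ± 0.29 and 0.41 ± 0.31 in 9 libraries). Col4a1 averaged 7186 ± 719 in old mutants and 7632 ± 1189 in young mutants, against 7429 ± 1303 in old wOB and 11237 ± 1212 in young wOB (SD, n = 3 each), and young wOB libraries alone lay above all others. The prophenoloxidases of crystal cells, chosen after their values were seen, came nearest. PPO2 counted 288, 440.4 and 371 in old mutants and 1401, 1251 and 1202 in young mutants, against 127, 96.4 and 147 in old wOB and 1383, 1894 and 1065 in young wOB. Old flies of both genotypes were low, and old wOB were the lowest. PPO2 had an age change of -1.82 ± 0.21 in mutants and -3.52 ± 0.21 in wOB, a term of 1.70 ± 0.30 (limma adjusted p = 0.0647, with 1.36 ± 0.36 and 0.583 in 9 libraries). PPO1 had a term of 1.37 ± 0.32 (adjusted p = 0.169 by limma, with 1.03 ± 0.35 and 0.93 in 9 libraries).

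The yolk and eggshell genes, which report on egg production, had no called member among 24 in 12 libraries. The term was above 0 in 24 of 24 with 12 libraries and with 9, but the 9 are among the 12. Over all tested genes 47.7% were above 0 with 12 libraries and 44.3% with 9. With 9 libraries young wOB is replicate 3 alone. The mean log2 level of these genes was 12.78 in that library, against 13.06 and 13.31 in young wOB replicates 1 and 2. Their median term was 0.49 in 12 libraries and 0.31 in 9, and 12 and 2 of them had an unadjusted limma p under 0.05. The median age change of the list was 0.37 in mutants and -0.20 in wOB with 12 libraries, and 0.40 in mutants and 0.07 in wOB with 9. Members of the list are expressed together, in the follicle cells and for the yolk proteins also in the fat body, so that they are not independent of each other. Yp1, a yolk protein gene, counted 98149.9, 93255 and 84505 in old mutants and 70247, 64933 and 69078 in young mutants, against 74204, 57998 and 63267 in old wOB and 70622, 84801 and 59693 in young wOB. Old mutants lay above young mutants without overlap, the ages of wOB overlapped, and the term was 0.56 ± 0.18 (limma adjusted p = 0.429, with 0.34 ± 0.22 and 1 in 9 libraries). Femcoat, an eggshell gene, had a term of 0.77 ± 0.24 (0.75 ± 0.27 in 9 libraries), and Cp7Fb, a chorion gene, one of 1.12 ± 0.34 (0.68 ± 0.39), where young mutant libraries lay below all others. Yp1, Femcoat and Cp7Fb were named after their values were seen. Germline and oocyte genes, 25 in number, had a median of -0.13 in 12 libraries and -0.01 in 9, with none called.

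Digestive enzymes had 34 of 46 members above 0 and 12 below in 12 libraries, and 29 above and 17 below in 9, with none called and medians of 0.38 and 0.13. The members named by the rule, the serine proteases Jon65Aiv and Jon65Aiii, had terms of 0.69 ± 0.32 and 0.60 ± 0.31 (0.30 ± 0.27 and 0.20 ± 0.25 in 9 libraries), and their ages overlapped in both genotypes. The 3 that follow were picked after their values were seen. Amy-p, an amylase, counted 19417, 12592 and 19317 in old mutants and 8355, 7612 and 6895 in young mutants, against 7299, 6049.6 and 5484 in old wOB and 5020.4, 7723 and 4605 in young wOB. The old mutant libraries were above all others, and the term was 1.00 ± 0.29 (limma adjusted p = 0.358, with 0.77 ± 0.34 and 1 in 9 libraries). The trypsin betaTry had a term of 0.76 ± 0.20 (0.53 ± 0.17 in 9 libraries) with old mutants again highest, and the serine protease Jon66Ci one of 1.98 ± 0.49 (2.11 ± 0.73).

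**Figure D5:**
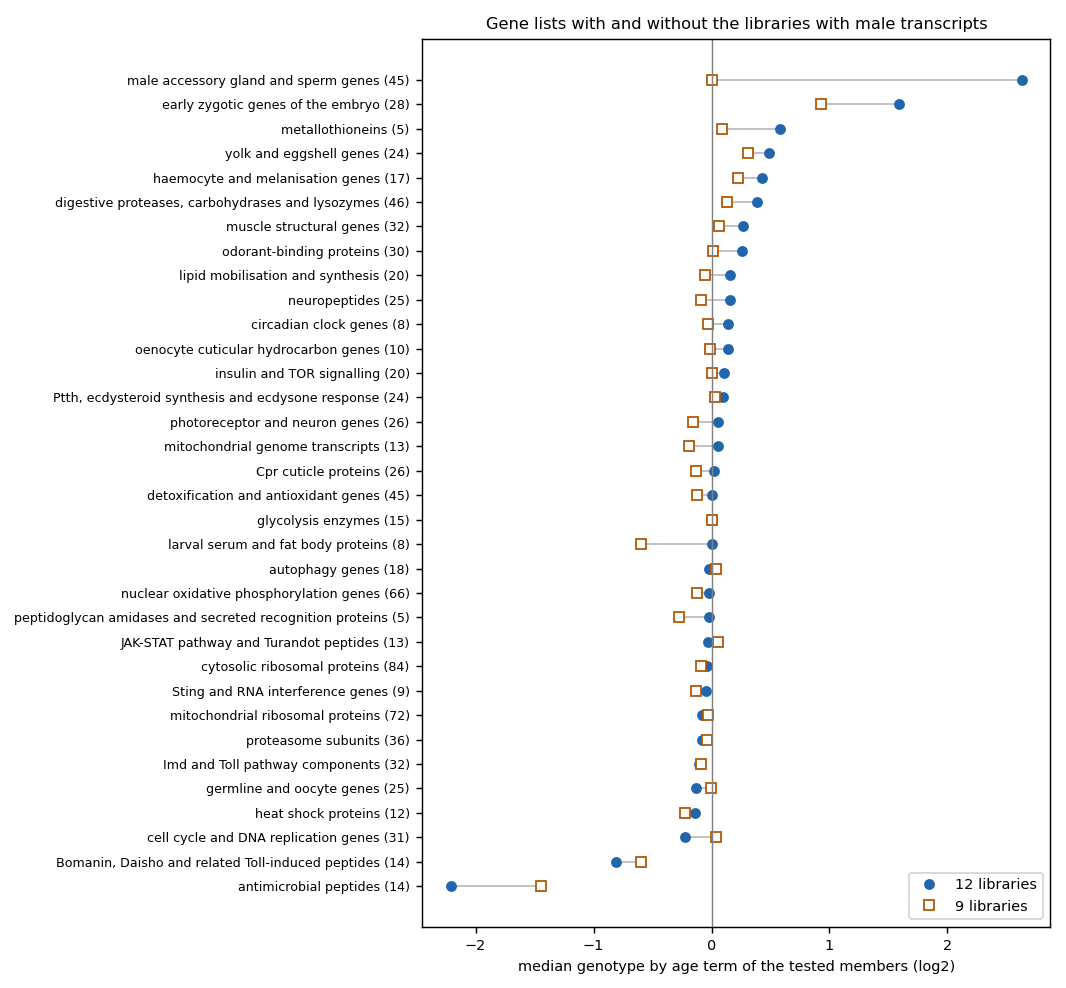
Median genotype by age term (log2) of the tested members of each gene list with 5 or more of them, with 12 libraries (filled circles) and with 9 (open squares), the number of tested members in brackets. The antimicrobial peptides lie lowest, at -2.21 and -1.44, and the male accessory gland and sperm genes move the most, to 2.63 with 12 libraries and 0.00 with 9.

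The remaining lists were compared between 12 and 9 libraries. Leaving out the libraries with male transcripts also leaves young wOB as 1 library. Shifts from male transcripts and from that library cannot be told apart, and neither was tested. All 45 tested male accessory gland and sperm genes had a term above 0 in 12 libraries, with a median of 2.63, while the median was 0.00 in 9, and none was called in either. Cell cycle and DNA replication genes had 0 of 31 members above 0 in 12 libraries and 24 of 31 in 9, and photoreceptor and neuron genes 20 of 26 in 12 and 2 of 26 in 9. For both lists the median changed sign, -0.23 against 0.04 for the cell cycle and 0.06 against -0.16 for neurons, so neither direction can be stated. In all, the median changed sign between 12 and 9 libraries in 12 of the 35 lists, and no direction can be stated for these. They include the JAK-STAT and Turandot list given above, lipid metabolism (0.16 in 12 libraries and -0.06 in 9), detoxification (0.01 and -0.12), the Cpr cuticle genes (0.02 and -0.14) and the mitochondrial transcripts (0.05 and -0.20). Nuclear oxidative phosphorylation genes had a median of -0.02 in 12 libraries and -0.13 in 9, and cytosolic ribosomal protein genes one of -0.04 and -0.09, with none called of 66 and 84. Genes of ecdysteroid synthesis and response, the textbook route of PTTH action, had no called member among 24 in 12 libraries. Their median term was 0.10 in 12 libraries and 0.03 in 9. Insulin and TOR genes had none among 20 in 12 libraries, and medians of 0.10 and 0.01. With 0.158% of all tested genes called in 12 libraries, the absence of a call in any list is no result about its members.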

How the data were processed

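RNA-seq libraries of whole adult females were analysed, 3 in each of 4 groups. Per the labels, the authors used STAR 2.7.3a on BDGP6, HTSeq 0.11.2 and DESeq2 1.20.0. The sources used here do not give whether counting used strand, and the labels describe more than 1 library preparation without saying which library had which. The deposited values are a signal, gene counts that the authors divided by a size factor per library, so they are not scaled for gene length. Whole reads were recovered for 100.0% of values (within 0.01), which allowed the count tests. Genes reaching 10 normalised counts in 3 or more libraries were kept (11403), a pseudocount of 1 was added, and the 4 groups were fitted with limma 3.58.1 (R 4.3.3, trend) in 1 model. Adjusted p-values are Benjamini-Hochberg over all genes kept, and a gene is called at an adjusted p under 0.05, with no fold threshold. The fit was repeated without the 3 libraries with male transcripts. The filter passes a gene through the group where it is high. A fold on this scale understates the change of low genes. Alternatives used edgeR 4.0.16, DESeq2 1.42.0, other filters, pseudocounts, scalings, weights, covariates and leaving out each library. Scripts were tested on simulated data. Positions are from an Ensembl annotation of the same Release 6 assembly, later than that of the authors, with older symbols matched through RefSeq, by which 11389 of the 11403 symbols were found.

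The comparison, the 35 gene lists and their members were chosen with earlier results of these data known. Named genes are Ptth, tor, the antimicrobial peptides and Bomanins, the 12 called genes with the largest terms in each direction and fit at a mean normalised count of at least 50 and outside the male lists, those called in both fits with the same sign, and for each list up to 4 called members and the 2 with the highest mean. Genes outside this rule are marked as chosen after their values were seen. Intervals and p-values cover the spread between libraries only.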

Additional observations from a re-analysis of the deposited data

Results flagged for a closer look

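Each of the following genes is listed because its age change in mutants, tested directly against that in wOB, passed the limma test. CG10035 and link passed the filter on low values through the young wOB libraries alone. dan reached 10 in 5 libraries, 3 of them young wOB, and would not have passed without these. A difference of that group was therefore required for CG10035, link and dan to be tested. In the 12-library fit, all but Act88F, CG32557, CG4950, CG6337 and CG7916 were called in only 1 to 8 of the 12 repeats that left out 1 library. In 12 libraries the genotype by age term (log2) was 7.41 for CG10035, 5.46 for link, 5.11 for hll, 3.60 for dan, 3.32 for Act88F, 2.71 for CG8299, 1.90 for CG7567, 1.67 for CG32557, 1.59 for Cpr47Ef and 1.42 for CG34220. It was 1.40 for CG12057, 1.22 for CG6337, 1.15 for NtR, 1.05 for CG4950, 0.81 for CG8997 and 0.77 for CG7916, and it was -0.65 for l(2)gl and -1.32 for CG3604.

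In the 9 libraries without male transcripts the term was 6.04 for CG14317, 5.12 for CG7271, 5.08 for Bsg25A, 1.98 for CG32440, 1.66 for CG32557 and 1.57 for CG5327. For all 6 the young wOB value is that of a single library. CG14317, CG7271, Bsg25A, CG32440 and CG5327 reached 10 counts in at most 1 of the 9 libraries and carry no weight as results.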

How the results depend on the processing

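Of the count of 18 genes in 12 libraries, other settings gave 40 with no filter on low values, 6 with edgeR (TMM) and 6 with edgeR (RLE factors), 123 with DESeq2, 65 with the male transcripts as a covariate and 6 without the 3 libraries with male transcripts. Library weights gave 3041, where young wOB replicate 1 received a weight of 322 and the other 11 libraries 0.107 to 2.23. Leaving out 1 library gave 4 to 201, the highest without young wOB replicate 3 and the next highest 15. For the 6 genes in 9 libraries the counts were 2 with a pseudocount of 0.5, 25 with one of 5, 119 with no filter, 2 with a minimum of 50, 13 with quantile normalisation, 48 with DESeq2, 19 with no trend, 16 with library weights and 0 to 6 with 1 library left out. The settings not given here or below stayed within 1.5 times of these counts.

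With the replicate number as a replicate block the counts were 21 in 12 libraries and 0 in 9. Same-numbered libraries of different groups deviated together (r over 0.1) in 4 of 18 pairs, with r from -0.87 to 0.88. Young mutant replicate 1 had an r of 0.82 with young wOB replicate 1 and of 0.93 with young wOB replicate 2. These 3 libraries all hold male transcripts, so the check cannot decide whether the replicate numbers pair the samples.

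Terms near 0 changed sign. Ptth in 12 libraries was at 0.0162 with TMM scaling, 0.0443 and 0.0116 with edgeR (TMM, RLE), 0.0195 with DESeq2, 0.204 with library weights and -0.163 to 0.159 with 1 library left out. tor was at 0.0232 without the libraries with male transcripts. DptA in 12 libraries was at 0.60 without those libraries and at -1.58 to 0.66 with 1 library left out, and in 9 libraries at -0.052 with library weights, -0.169 with the replicate block and -0.163 to 1.53 with 1 left out. CG5778 was at -0.165 with the covariate and at -0.149 to 0.278 with 1 library left out. The cause of these changes was not tested.

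With 9 libraries young wOB is 1 library, so its spread is taken from the other groups, and depth limits genes of a few reads such as CG32440 and CG5327.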

Other observations

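CG43175 and Tom, a member of the early zygotic list, were not called. They were chosen after their values were seen, since the libraries of a wOB group stood above all others. Tom passed the filter on low values through the young wOB libraries alone. A difference of that group was required for Tom to be tested, so its term carries no weight as a result. CG43175 counted 9.31, 7.97 and 21.8 in old mutants and 29.3, 18.5 and 10.2 in young mutants, against 258, 179 and 360.1 in old wOB and 30.5, 53.4 and 24.6 in young wOB, with a term of -3.41 ± 0.65 (limma adjusted p = 0.0826; -3.53 ± 0.80 and 0.411 in 9 libraries). Tom, a Bearded family inhibitor of Notch signalling, counted 0.931, 0.996 and 0.807 in old mutants and 5.86, 0 and 0 in young mutants, against 2.39, 0.954 and 0 in old wOB and 153, 117 and 48.1 in young wOB, with a term of 5.69 ± 1.26 (adjusted p = 0.158 by limma; 5.64 ± 0.73 and 0.0997 in 9 libraries).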
